A study of Homo sapiens with 4 samples.

Results

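The RNA of 42 eukaryotic translation factors, the initiation, elongation and release factors that carry a ribosome from the start to the stop of a coding sequence, was followed in T24 cells with and without IGF2BP3. The members were a list of gene symbols, with no measured value in the rule, and all 42 were matched to an entry among the 58302 Ensembl genes of the deposited tables. T24 is an established line from a human bladder carcinoma. PolyA RNA of 2 libraries labelled control and 2 labelled IGF2BP3 knockout was sequenced, where the knockout was made with CRISPR/Cas9 as a stable line. Nothing in the labels tells whether replicates were grown apart or derived from different clones, so p-values measure only the spread between these samples, which may be technical. Values are FPKM, fragments scaled to transcript length and to the reads of the library, as the authors deposited them.

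Initiation begins when eIF2, bound to GTP and initiator tRNA, joins eIF1, eIF1A, eIF3 and eIF5 on the small ribosomal subunit, and eIF2B later reloads eIF2 with GTP. The eIF4F complex binds the capped end of the messenger RNA and unwinds it, and eIF5B joins the large subunit at the start codon. Elongation factors then bring aminoacyl-tRNA (eEF1) and move the ribosome along (eEF2), and eRF1 with eRF3 ends the chain at a stop codon. IGF2BP3 is an RNA-binding protein that binds many messenger RNAs and is studied for their stability and translation. Many transcripts of the translation apparatus itself start with a run of pyrimidines, the 5′ TOP, through which mTORC1 and LARP1 control their translation.

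The TOP-like starts among the members are shown because the 5′ TOP lies at the RNA's first base. They are TOP-like by sequence only, and whether the matched genes are regulated together was not tested. Of the members in a literature TOP list, given further below, 6 had a start window and 5 of these matched. RefSeq start windows (GRCh38.p14, a patch of the hg38 build) were found for 35 of the 42 members. A start was counted when the annotated first base was C and at least 4 more C or T followed on the transcribed strand. Such a start was present for 10 of these 35 genes (28.6%), versus 1404 of 27305 genes with a window (5.14%). The 10 bases before the start and the first 20 from it are given 5′ to 3′, with the run of pyrimidines at the start in capitals.
EEF2 (chr19:3985444-3985473, minus strand): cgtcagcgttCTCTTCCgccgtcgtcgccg
EEF1A1 (chr6:73521013-73521042, minus strand): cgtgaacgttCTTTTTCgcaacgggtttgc
EEF1B2 (chr2:206159885-206159914, plus strand): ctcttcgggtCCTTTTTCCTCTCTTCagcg
EIF4B (chr12:53006446-53006475, plus strand): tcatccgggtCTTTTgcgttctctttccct
EIF4A2 (chr3:186783567-186783596, plus strand): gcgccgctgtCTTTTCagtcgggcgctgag
EIF3F (chr11:7987327-7987356, plus strand): cttccgcctcCTTCTTTCTCgacaagatgg
EIF3M (chr11:32583821-32583850, plus strand): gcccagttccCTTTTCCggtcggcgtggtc
EIF3K (chr19:38619178-38619207, plus strand): tttccaccacCTCTTCCTgttcccgtcctt
EIF3D (chr22:36529147-36529176, minus strand): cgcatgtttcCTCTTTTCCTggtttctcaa
EIF2S3 (chrX:24054946-24054975, plus strand): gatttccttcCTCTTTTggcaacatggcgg
The longest run, 16 bases, was that of EEF1B2, and the shortest, 5 bases, that of EIF4B. A match is a description of the annotated start, and no match says only that the window at that start does not hold the run.

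The libraries were shallow and unlike each other. The reads behind the FPKM, recovered from the values, were 2162179 and 1870884 for control 1 and control 2 and 811823 and 1240207 for knockout 1 and knockout 2. IGF2BP3 (ENSG00000136231) had FPKM of 2.94 and 21.5 in control cells versus 0 and 0.190 in knockout cells, which goes with the labels. Its fitted log2 fold change of −3.89 ± 2.83 (SE, n = 2 and 2) did not pass (adjusted p = 0.955 in limma). Of the cell type markers, KRT8, KRT18 and VIM were above 0 in all 4 libraries, the 4 uroplakin genes of differentiated urothelium were listed at 0 in all, and so were the 4 leukocyte markers. Other urothelial markers were not all at 0. PPARG had FPKM of 0 and 6.85 in control cells versus 46.1 and 0 in knockout cells, and GATA3 had 0.150 in control 1 alone. The 6 epithelial markers, of which KRT19, EPCAM and CDH1 were at 0 in every library, summed to FPKM of 439.6 and 575 in control cells versus 1499 and 1163 in knockout cells. The 3 mesenchymal markers summed to 177 and 184 versus 321 and 375, most of it VIM (177 and 172 versus 267 and 372). VIM and ZEB1 were higher in both knockouts than in both controls. CDH2 overlapped between groups, at 0 and 11.5 versus 19.9 and 1.49. The part of these markers in the values below was not tested.

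No translation factor passed the threshold. Of the 42, EEF1G was listed at 0 in every library and the other 41 entered the fit over 11463 genes (limma on log2(FPKM + 0.5), adjusted p under 0.05), where 0 of 41 passed, versus 0.0872% of all genes tested. At an unadjusted p under 0.05 there were 2 of 41, versus 3.91% of all genes, and limma-voom on recovered reads, a test chosen after seeing the data, also called 0. The fitted difference was above 0 for 20 of the 41 members, against 48.2% of all genes tested, and below 0 for 21, with a median log2 fold change of −0.01, beside −0.08 over all genes tested. It was above 0 for 15 after quantile scaling and for 23 after scaling to a common median. In bulk RNA, a difference in the makeup of the cells and one in RNA per cell cannot be told apart. Groups did not overlap for 6 members higher and 6 lower in the knockout, 12.1% and 14.4% being the shares over all genes tested. The SE of each gene was set by limma from genes of like level and not from that gene's own replicates.

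**Figure D1:**
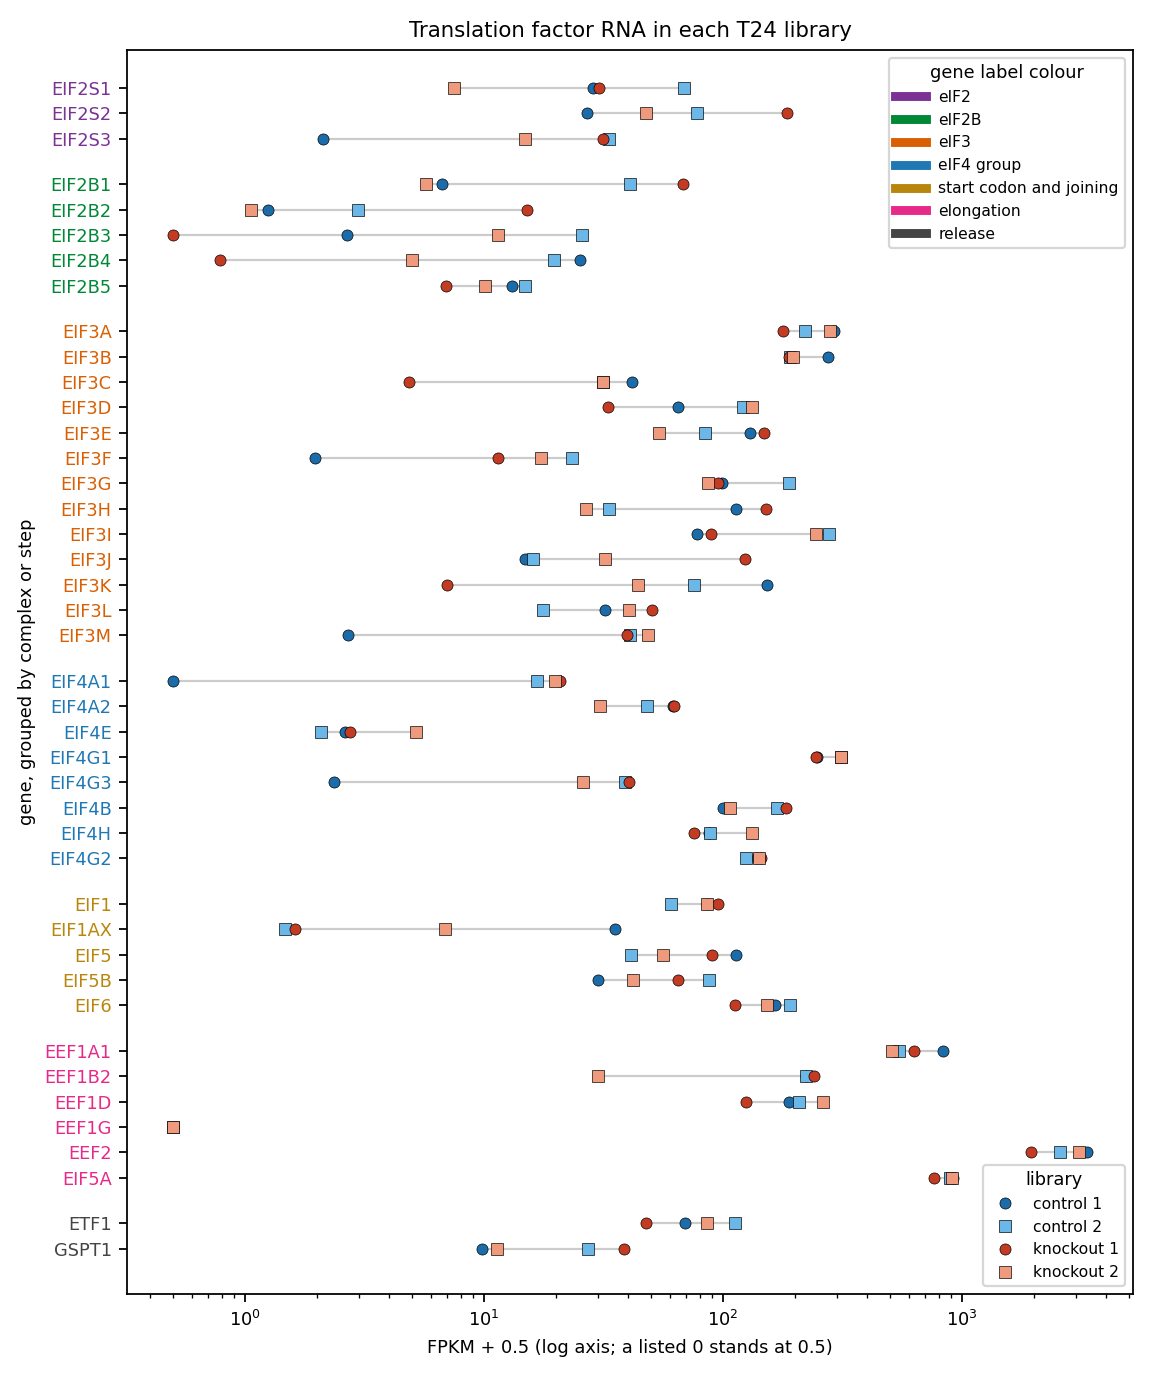
FPKM + 0.5 of each of the 42 translation factors (log axis) in the 4 T24 libraries, with genes grouped and coloured by complex or step and a grey line from the lowest to the highest library. EEF2, EIF5A and EEF1A1 lie far to the right with close points, EEF1G has its 4 points at a listed 0, and many members below about FPKM 100 are spread widely within both groups.

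EEF2, EIF5A and EEF1A1, of the elongation group, had the highest mean levels of the 41. They also had the smallest SE, which limma set by level and not by their own replicates. EEF2, the GTPase that translocates the ribosome, had FPKM of 3329.6 and 2571 in control cells versus 1939 and 3081 in knockout cells. The groups overlapped, with knockout 1 lowest. Its log2 fold change of −0.26 ± 0.25 (SE) had a 95% interval from −0.76 to 0.24 (adjusted p = 0.955 in limma), the tightest of the 41. EEF2 ranked 2, 2, 3 and 2 among protein-coding genes by FPKM in control 1, control 2, knockout 1 and knockout 2, and took 1.05%, 0.813%, 0.613% and 0.975% of the recovered reads. For knockout 1 the exact binomial 95% interval of that share was 0.597 to 0.631%, which covers counting error only, since copied reads are not independent molecules.

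EIF5A, the hypusine-bearing factor that helps the ribosome through difficult peptide bonds, was nearly level across libraries. Its FPKM was 917 and 892 in control cells versus 759 and 902 in knockout cells, a log2 fold change of −0.13 ± 0.36 (SE) with an interval from −0.83 to 0.57. EEF1A1, the carrier of aminoacyl-tRNA, had 829 and 543 versus 630.2 and 506, and these groups overlapped too. EEF1A1 has many processed pseudogenes, with which its reads can be shared, so its level is uncertain. EEF2 stood at 3.08 to 6.09 times the FPKM of EEF1A1 in the 4 libraries, a ratio per length that rests on the longest annotated transcript of each gene (3164 and 4441 nt).

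The exchange factors of eEF1A were less even. EEF1B2, the catalytic beta subunit, had FPKM of 222 and 221 in control cells and 240.1 and 29.4 in knockout cells. Knockout 2 alone was low, and knockout 1 was the highest of the 4 libraries. Exons of EEF1B2 share 16.4% of their bases with other genes on the same strand. The log2 fold change of −1.39 ± 0.66 (SE) had an unadjusted p of 0.0349 and an adjusted p of 0.955 in limma, and it was 0.11 without knockout 2 and −2.90 without knockout 1. EEF1D, a further exchange subunit, had 188 and 207 versus 124 and 262. Exons of EEF1D share 34.0% of their bases with other genes when both strands are counted, and the strand setting is not given. The fitted difference of each of the 5 tested elongation members was below 0, from −1.39 to −0.13, although scaling the libraries to a common median put EEF1D at 0.0057 and EIF5A at 0.0072, while their levels overlapped between groups for all 5.

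EEF1G, the structural gamma subunit, is abundant in most cells and was listed at 0 in all 4 libraries. Counts of 0 would allow FPKM of up to 0.556, 0.642, 1.48 and 0.969 in control 1, control 2, knockout 1 and knockout 2 (3 reads each). In GENCODE 29 its exons share 99.9% of their bases with AP002990.1, a protein-coding gene on the same strand, which was also at 0 in every library. How reads in shared exons were counted was not tested, and the 0 is no measure of EEF1G RNA.

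The subunits of eIF2 pointed in different directions. EIF2S1, the alpha subunit whose phosphorylation shuts down initiation under stress, had FPKM of 28.2 and 68.2 in control cells versus 29.7 and 7.01 in knockout cells. EIF2S2, the beta subunit, had 26.5 and 77.3 versus 184 and 47.1, and EIF2S3, the GTP-binding gamma subunit, had 1.62 and 32.9 versus 31.03 and 14.4. All 3 overlapped between groups, and replicates of a group differed by 2.16 to 20.3 times. The log2 fold changes were −1.56 ± 1.24, 1.03 ± 0.86 and 1.36 ± 1.62 (SE), and that of EIF2S3 turned to −0.63 without control 1.

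The subunits of eIF2B, the exchange factor that recharges eIF2, differed most between the knockout libraries, with a median absolute difference of 3.58 in log2(FPKM + 0.5) between them. EIF2B4, the delta subunit, had FPKM of 24.8 and 19.2 in control cells versus 0.287 and 4.51 in knockout cells, values that stand for 230 and 154 reads versus 1 and 24. The groups did not overlap, and the log2 fold change of −3.49 ± 2.20 (SE) was the largest difference in the list in either direction (adjusted p = 0.955 in limma). It lay between −4.82 and −2.15 with 1 library left out. EIF2B5, the catalytic epsilon subunit, was also lower without overlap, at 12.6 and 14.4 versus 6.41 and 9.55. EIF2B1, a regulatory subunit, split within both groups, at 6.16 and 40.4 versus 67.6 and 5.21. EIF2B3, the gamma subunit, had 2.16 and 25.3 versus 0 and 10.9, where the 0 of knockout 1 allows up to 1.92. EIF2B2, the beta subunit, was below FPKM 15 in every library, at 0.750 and 2.48 versus 14.6 and 0.561. Summed over the 5 subunits, the level was 46.4 and 102 in control cells versus 88.9 and 30.7 in knockout cells.

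The summed RNA of eIF3, the 13-subunit scaffold that holds the small subunit and the mRNA together, varied little. The sum of FPKM was 1289.9 and 1312 in control cells versus 1114 and 1229.9 in knockout cells, a ratio of group means of 0.901, and the highest sum was 1.18 times the lowest. Both knockouts lay below both controls, which was not particular to eIF3. The sum of the start codon and subunit joining group did the same, at 427 and 380 versus 361 and 341. So did the sum of all members, which contains that of eIF3, also without EEF2 (4691 and 4769 versus 4417 and 4235). The sums of eIF2, eIF2B, the eIF4 group, the elongation factors and the release factors overlapped between groups. EIF3A and EIF3B, the core subunits that nucleate the complex, had the 2 highest levels averaged over the 4 libraries, EIF3A at 289.6 and 219 versus 178 and 279.5 and EIF3B at 274 and 190.1 versus 188 and 196. Their log2 fold changes were −0.17 ± 0.55 and −0.25 ± 0.57 (SE), and both crossed 0 with a library left out.

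Single eIF3 subunits were far less even than the sum. EIF3K, a peripheral subunit, had FPKM of 152 and 75.3 in control cells versus 6.50 and 43.7 in knockout cells. The groups did not overlap, and 7 reads stood behind the value of knockout 1. The p of its log2 fold change, −2.61 ± 1.01 (SE), was the smallest of the 41 (0.00951 unadjusted, 0.940 adjusted in limma) and was −1.28 without knockout 1. EIF3J, a loosely bound subunit that acts in mRNA entry and recycling, stood the other way, at 14.4 and 15.6 versus 123 and 31.7, a log2 fold change of 2.02 ± 1.15 (SE). EIF3M had 2.20 and 40.3 versus 39.3 and 48.2, so control 1 alone was low and its log2 fold change of 2.07 ± 1.33 (SE) was 0.11 without that library. EIF3F, the lowest of the 13, had the same low control 1, at 1.47 and 22.9 versus 10.9 and 16.9.

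Of the other 7 subunits, EIF3L was higher in both knockouts than in both controls (31.6 and 17.1 versus 49.7 and 40.1). Exons of EIF3L share 41.1% of their bases with AL022311.1 on the same strand, so its level is uncertain. EIF3G and EIF3C were lower in both, EIF3G at 98.5 and 188 versus 94.7 and 86.4, and EIF3C at 41.3 and 31.1 versus 4.36 and 30.97. EIF3C has a near-identical copy, EIF3CL, and reads can be divided between them. The 2 together had 66.4 and 77.2 versus 23.1 and 54.5. EIF3D, EIF3E, EIF3H and EIF3I overlapped, with log2 fold changes from −0.42 to 0.04. EIF3D, which can itself bind a cap, had 64.4 and 120.3 versus 32.6 and 132, and EIF3I had 77.4 and 276 versus 88.7 and 244, so that both were higher in the libraries numbered 2. EIF3E and EIF3H varied side by side: EIF3E had 129 and 83.3 versus 148 and 53.5, and EIF3H had 113 and 32.8 versus 150.0 and 26.3.

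**Figure D2:**
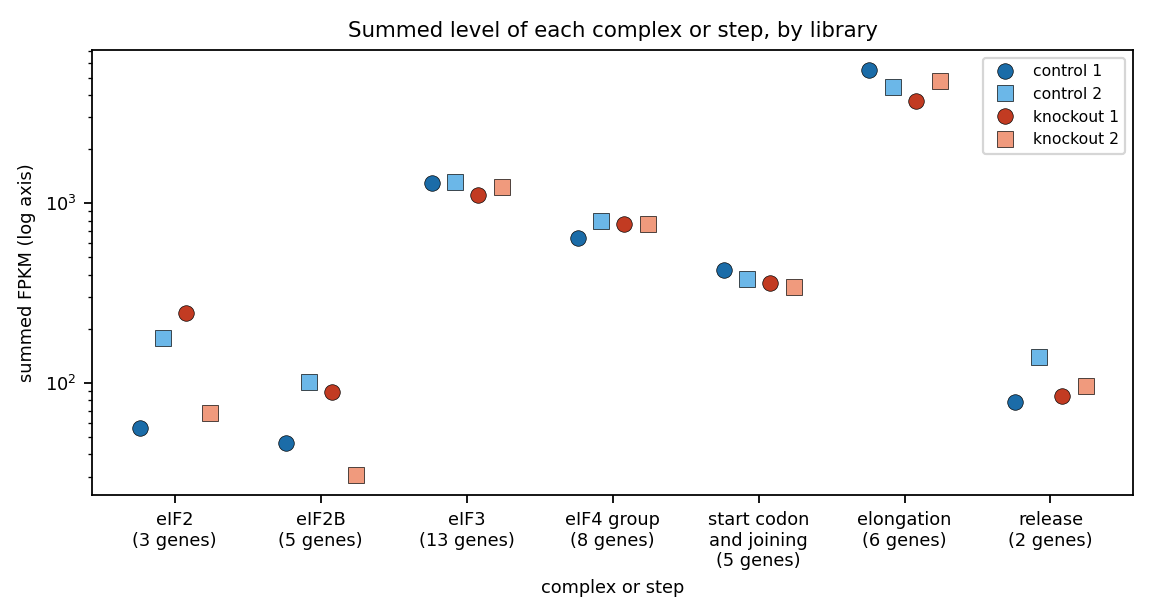
Summed FPKM of the members of each complex or step (log axis), 1 point per library, with the number of genes under each name. The eIF3 sums lie between 1114 and 1312, while the eIF2 and eIF2B sums differ by more than 2 times within both groups.

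Of the cap-binding group, EIF4G1, the main eIF4G scaffold, had the highest mean level. It had FPKM of 246 and 311 in control cells versus 243 and 312 in knockout cells, a log2 fold change of −0.01 ± 0.52 (SE) with an interval from −1.02 to 1.01. EIF4G2, a relative that lacks the eIF4E-binding site and serves other routes of initiation, had 138 and 124 versus 144 and 141. Both knockouts of EIF4G2 lay above both controls, by a log2 fold change of 0.12 ± 0.66 (SE), and its highest library was 1.16 times its lowest, the smallest such span of the 41. EIF4G3, the second scaffold, had 1.87 and 38.4 versus 39.8 and 25.4, with control 1 alone low. EIF4G1 was thus 132 times EIF4G3 in control 1 and 6.12 to 12.3 times in the other 3 libraries.

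EIF4E, the cap-binding protein and a known target of mTOR signalling through its binding proteins, had the lowest FPKM of the tested members when averaged over the 4 libraries, though other members were lower in each single library. Its FPKM was 2.13 and 1.58 in control cells versus 2.24 and 4.69 in knockout cells, from 21 to 67 reads. Both knockouts lay above both controls, while the log2 fold change of 0.69 ± 2.79 (SE) was far smaller than its error. The authors' length for EIF4E matches the longest annotated transcript (11523 nt), and reads of shorter forms divided by that length give a lower FPKM. EIF4G1 stood at 66.6 to 197 times EIF4E by FPKM.

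The helicases of eIF4F unwind the 5′ end of the mRNA. EIF4A1 had FPKM of 0 and 16.1 in control cells versus 20.3 and 19.3 in knockout cells. The 0 of control 1 allows up to 0.790 by counting error alone, and that library listed fewer genes than control 2 despite more reads. The log2 fold change of 2.82 ± 2.07 (SE) was the largest in the upper direction, and it was 0.29 without control 1. Exons of EIF4A1 (ENSG00000161960) share 48.6% of their bases with other genes on the same strand, so this level is uncertain. Its paralog EIF4A2, with 10.5% of exon bases shared in this way, had 61.4 and 47.6 versus 61.7 and 29.97. The cofactors that stimulate the helicase overlapped between groups, EIF4B at 99.5 and 167 versus 184 and 106, and EIF4H at 87.2 and 87.6 versus 75.4 and 131.

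Factors of start codon choice and subunit joining gave no passing member. EIF1, which guards the fidelity of start codon selection, had FPKM of 84.8 and 60.3 in control cells versus 94.6 and 85.5 in knockout cells. The groups were separate by a narrow margin, and the log2 fold change was 0.33 ± 0.80 (SE). EIF6, which keeps the large subunit from joining too early, lay on the other side at 165 and 191 versus 112 and 153 (log2 fold change −0.44 ± 0.64, SE). Exons of EIF6 share 17.4% of their bases with a neighbouring gene on the same strand. EIF1AX, the partner of eIF1, had the widest spread between controls of all members above 0 in both, at 34.8 and 0.966 versus 1.11 and 6.37. Its 333 reads in control 1 and 8 in control 2 are the same gene in the same group. EIF5, the GTPase activator of eIF2, and EIF5B overlapped. EIF5 had 113 and 40.5 versus 89.1 and 55.3, EIF5B had 29.4 and 87.1 versus 64.2 and 41.5, and their log2 fold changes were 0.05 and 0.03.

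The release factors overlapped as well. ETF1, which encodes eRF1 and reads the stop codon, had FPKM of 68.9 and 112 in control cells versus 47.1 and 85.1 in knockout cells. GSPT1, which encodes its GTPase partner eRF3a, had 9.31 and 26.6 versus 37.97 and 10.8. The log2 fold changes were −0.47 ± 0.82 and 0.35 ± 1.42 (SE). ETF1 was 1.24 to 7.90 times GSPT1, with knockout 1 as the library of the smallest ratio.

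**Figure D3:**
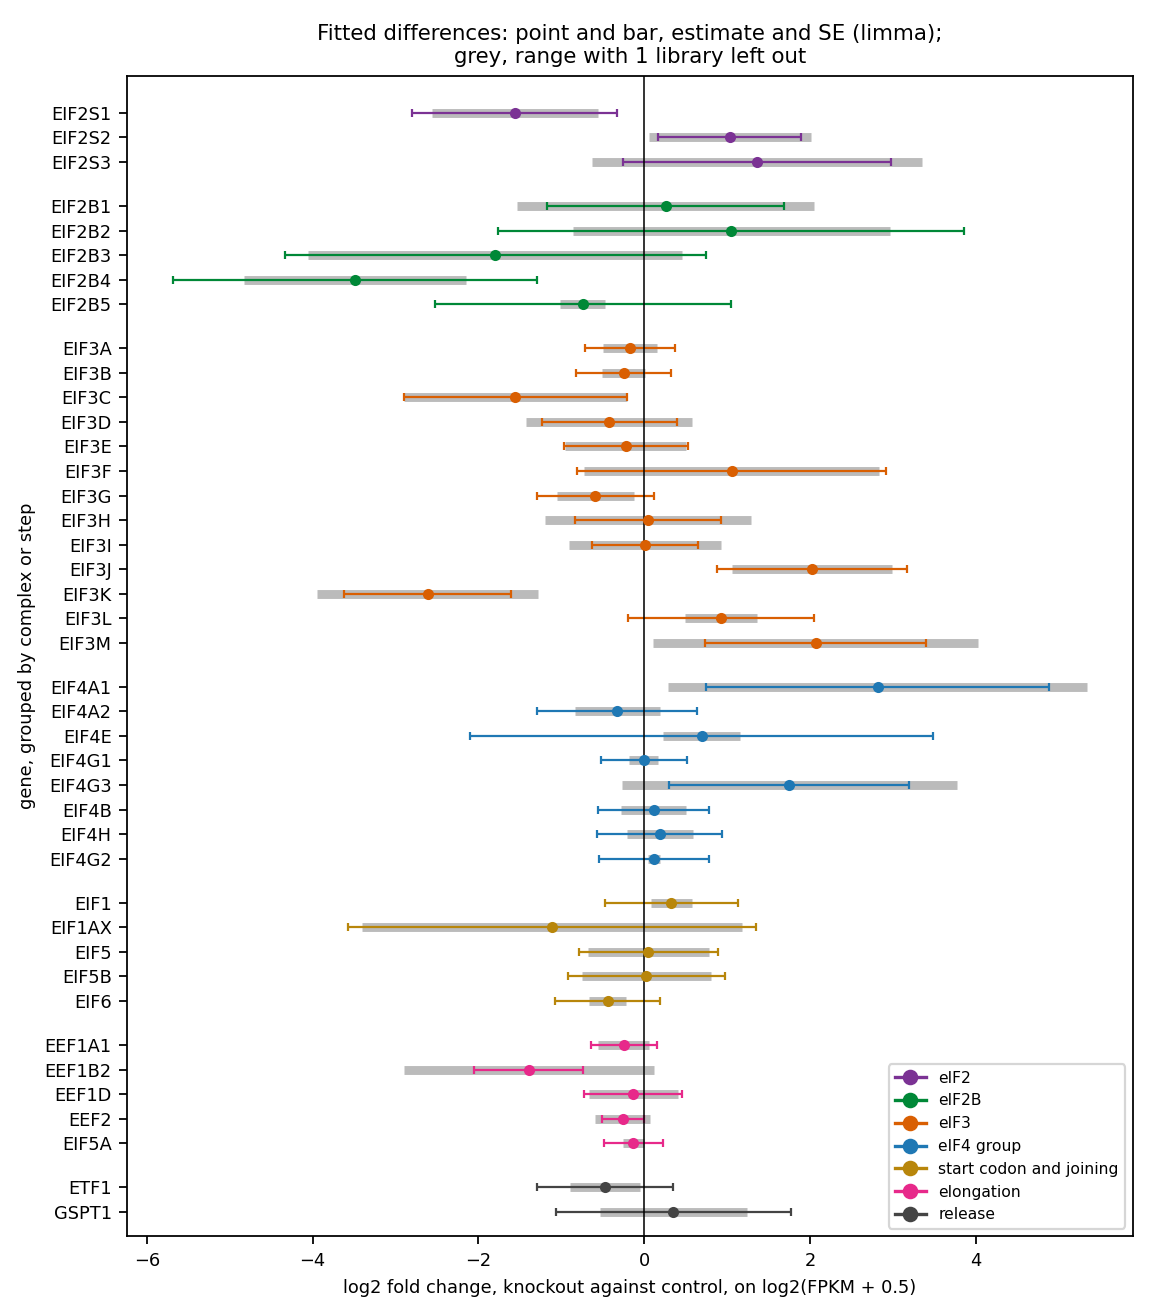
Fitted log2 fold change of the 41 tested translation factors, knockout against control, as points with SE bars (limma, n = 2 and 2) coloured by complex or step, over grey bars for the range with 1 library left out. The elongation factors EEF2 and EIF5A have the shortest bars near 0, while EIF4A1, EIF2B4, EIF3K and EIF3M lie farthest from it with wide ranges. The SE bars were set by limma from genes of like level.

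How far replicates differed went with the level. Among the 14 members with a mean FPKM of 100 or more, a bound set after the values were seen, log2(FPKM + 0.5) of control 1 and control 2 differed by more than 1, a 2-fold difference, for 1 member and that of the knockouts for 4. Among the 27 members below it, the numbers were 16 and 15. The median absolute difference in log2(FPKM + 0.5) was 0.39 between controls and 0.55 between knockouts for the higher members and 1.26 and 1.08 for the lower. Over all genes tested these medians were 0.51 and 0.71 for the 539 genes at the higher level and 1.71 and 2.00 for the 10924 below it. By counting error alone, reads of the 2 controls were outside the exact 95% interval for equal levels for 35 of 41 members and those of the knockouts for 34. That interval treats reads as independent molecules, which copied reads are not.

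**Figure D4:**
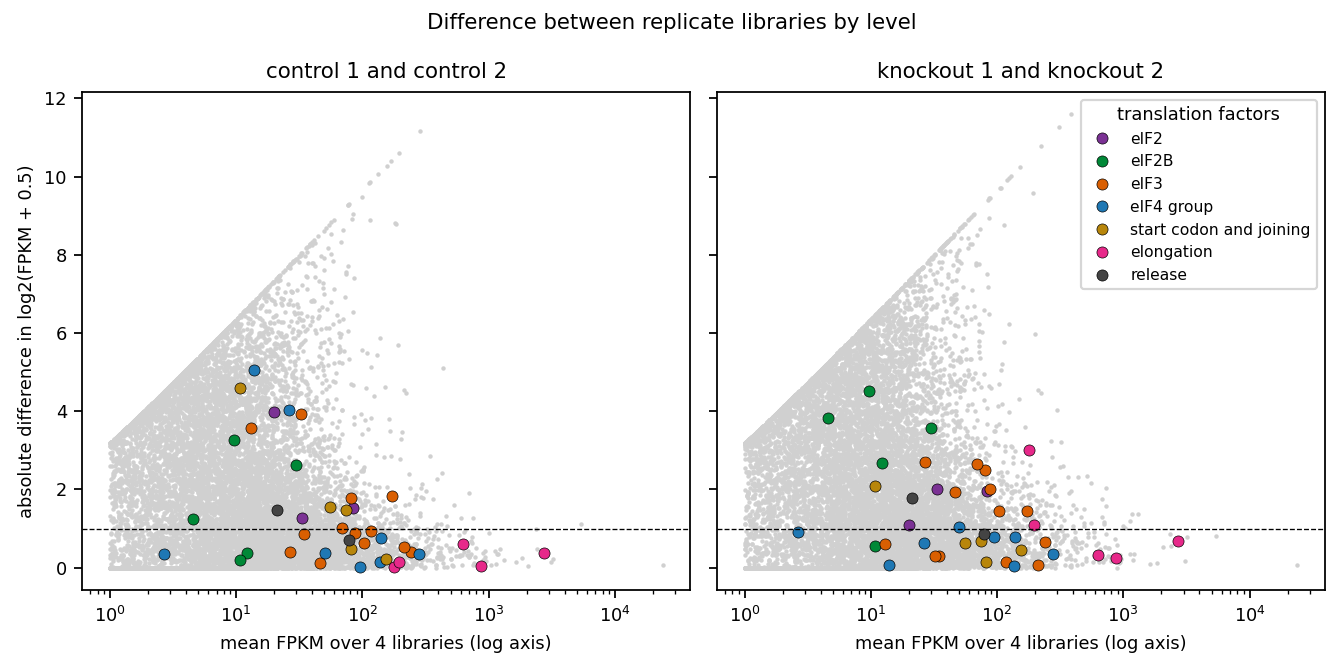
Absolute difference in log2(FPKM + 0.5) between the 2 control libraries (left) and the 2 knockout libraries (right) against the mean FPKM of the gene (log axis), for all 11463 genes tested (grey) and the 41 translation factors (coloured by complex or step). The dashed line marks a 2-fold difference on that scale, and most members to the right of FPKM 100 lie under it.

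Fewer translation factors than genes in general were listed at 0. Of the 41 tested, 2 (EIF4A1 and EIF2B3) were at 0 in some library, or 4.88%, beside 49.4% of all genes tested, whose median level was lower (mean FPKM of 10.4 versus 74.5). At a mean FPKM of 100 or more the shares were 0% of members and 4.45% of all genes, and below it 7.41% and 51.6%. Neither the shares over all genes nor the correlations that follow were matched for level. Across the 41 members, Pearson's correlation of log2 values between 2 libraries lay between 0.64 and 0.88, beside 0.42 to 0.49 across all 11463 genes, values that share depth and length within a library and have no independent replicates. The members together took 2.66% and 2.37% of the recovered reads in the controls and 2.13% and 2.43% in knockout cells. Without EEF2 the shares were 1.60% and 1.56% versus 1.52% and 1.46%.

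Members with transcripts known to begin with a 5′ TOP gave no passing gene. Of a list of 9 (EEF1A1, EEF1B2, EEF1D, EEF1G, EEF2, EIF3E, EIF3F, EIF3H and EIF4B), 8 were tested, 3 with a fitted difference above 0 and 5 below, with a median log2 fold change of −0.18 beside 0.01 for the other 33 members. None of the 8 had groups without overlap, beside 26.5% of all genes tested. The sign of each of the 8 turned with some library left out, as it did for 5807 of the 11463 genes tested. The 8 stood at a higher level than the other 33, with a median of the mean FPKM of 159 versus 50.2. The 14 members with a mean FPKM of 100 or more had a median log2 fold change of −0.20. Of the 10 members with a pyrimidine start in RefSeq, printed above, 4 had a fitted difference above 0 and 6 below, with a median of −0.25. EIF3K was the 1 of these 10 whose groups did not overlap (10%, beside 26.5% of all genes tested). The 2 sets share EEF1A1, EEF1B2, EEF2, EIF3F and EIF4B.

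The regulators and paralogs of these factors, a list of 44 genes, gave 0 passing genes among 39 tested, with 20 higher, 19 lower and a median log2 fold change of 0.06. Groups did not overlap for 2 higher and 5 lower, or 17.9% of the 39, beside 26.5% of all genes tested. MCTS1, which works with DENR in ribosome recycling and reinitiation, came nearest, at FPKM 0 and 32.6 in control cells versus 186 and 86.3 in knockout cells. Its log2 fold change of 4.97 ± 1.30 (SE) missed the threshold (adjusted p = 0.0896 in limma) and was 1.94 without control 1. Its partner DENR had 57.1 and 14.5 versus 44.04 and 20.97. DHPS, the enzyme that begins the hypusine modification of eIF5A, had 95.3 and 42.7 versus 0 and 46.1, and DOHH, which completes it, had 20.3 and 8.42 versus 0 and 8.73. Knockout 1 alone was at 0 for both, and the log2 fold change of DHPS was −3.74 ± 1.45 (SE), or −0.46 without that library.

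Cap-end partners among the regulators gave mixed values. PAIP1, which links poly(A)-binding protein to initiation, had FPKM of 97.4 and 20.9 in control cells versus 0.886 and 12.2 in knockout cells, a log2 fold change of −3.45 ± 1.60 (SE, adjusted p = 0.955 in limma). PABPC1, the poly(A)-binding protein itself, had 486 and 349 versus 197 and 335, and LARP1, which binds the cap and TOP of mRNAs, had 173 and 145 versus 32.5 and 131. Both were lower in both knockouts than in both controls, by 0.68 ± 0.49 and 1.27 ± 0.73 (SE) on the log2 scale, without passing. EEF1E1, a scaffold protein of the aminoacyl-tRNA synthetase complex related to the eEF1 subunits, had 0 and 0.496 versus 0 and 37.4. EEF1A2, the paralog of EEF1A1 known from muscle and neurons, was well above 0 in every library, at 142 and 247 versus 233 and 335. Its log2 fold change of 0.57 ± 0.55 (SE) had an interval from −0.51 to 1.66. EIF4EBP3, EIF4E3 and GSPT2 were listed at 0 in all 4 libraries.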

How the data were processed

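PolyA RNA libraries of T24 cells (2 control, 2 IGF2BP3 knockout, by the genotype label) were prepared from Trizol RNA with a TruSeq kit, per the labels. HTSeq counts had been turned by the authors into the deposited FPKM, 1 file a library. The submitters' processing notes name hg38 as build. Which aligner, annotation, strand setting and handling of multiply mapped reads were used is not given in the sources used here. Counted on either strand, shared exon bases were 34.0% for EEF1D, 23.6% for EIF2B2 and 15.6% for EIF2B1, which share none on the same strand. Their levels would be uncertain too if strand was ignored. Names, positions and transcript lengths came from GENCODE 29. Multiplied by the longest transcript, 96.4 to 96.5% of values above 0 were whole multiples of 1 read (tolerance 0.001), which gave the depths. The length behind EIF2B5 was solved from its values.

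The 11463 genes whose FPKM averaged 1 or more were fitted in R 4.3.3 with limma 3.58.1 (knockout minus control, log2(FPKM + 0.5), trended eBayes), two-sided, with Benjamini-Hochberg adjustment over all of them. That scale understates changes of low genes. The prior degrees of freedom were infinite, so intervals are the estimate ± 1.96 SE. The code of the fit was tried on simulated counts with known changes. These were placed only in genes of higher level, with a fixed spread that was not estimated from these replicates. That trial therefore does not measure power or false calls in these data. Named genes are members of complexes of up to 3, and in larger groups the 2 highest, the lowest, the largest fitted rise and fall and those listed at 0, plus 2 regulators in each direction; further members were added for completeness. Members and lists were chosen with earlier results of these data known. Alternatives varied the pseudocount, filter, scaling, moderation, replicate block and libraries. Tables were joined and plotted with Python 3.11.15.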

Additional observations from a re-analysis of the deposited data

How the results depend on the processing

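The count of 0 translation factors past the threshold held under all 14 alternatives, including an adjusted p of 0.1, the replicate number as a block and each library left out. The median log2 fold change of the members was −0.18 to 0.11 with a library left out, and 0.13 after scaling libraries to a common median, which moved the median over all genes by 0.14. The count over all genes, 10, was 1 with that scaling (308 at an unadjusted p under 0.05), 0 under limma eBayes without trend (415), 18 at an adjusted p of 0.1 and 0 with each library left out (667 to 1024). With the replicate number as a block it was 14. The deviations of libraries with the same number had a correlation of −0.004 across genes, which cannot tell whether they shared a culture or a run. Genes above 0 numbered 8856 and 7827 in control 1 and knockout 1, versus 11433 and 11127 in control 2 and knockout 2. Apart from libraries left out, the sign turned for 8 of the 41 members. These were EEF1D (0.0057), EIF4G1 (0.13) and EIF5A (0.0072) under median scaling; EIF2B1 (−0.58), EIF3H (−0.071), EIF5 (−0.012), EIF5B (−0.059) and GSPT1 (−0.00051) under quantile scaling; and EEF1D (0.019), EIF2B1 (−0.0054), EIF3H (−0.32), EIF4G1 (0.076) and EIF5 (−0.10) under limma-voom. With 1 library left out, where limma assumes that the lone library varies like the other group, the sign turned for 24 of the 41 members, beside 5807 of the 11463 genes tested. Among the regulators and paralogs it turned for 21 of 39, of which only EEF1E1 is listed here with the members. The ranges were −0.55 to 0.057 for EEF1A1, −2.90 to 0.11 for EEF1B2, −0.67 to 0.41 for EEF1D, −0.50 to 5.75 for EEF1E1, −0.59 to 0.075 for EEF2, −3.41 to 1.18 for EIF1AX, −1.53 to 2.05 for EIF2B1, −0.86 to 2.96 for EIF2B2, −4.05 to 0.46 for EIF2B3, −0.63 to 3.35 for EIF2S3, −0.50 to 0.15 for EIF3A, −0.51 to 0.015 for EIF3B, −1.42 to 0.58 for EIF3D, −0.95 to 0.51 for EIF3E, −0.73 to 2.84 for EIF3F, −1.20 to 1.29 for EIF3H, −0.90 to 0.92 for EIF3I, −0.84 to 0.19 for EIF4A2, −0.28 to 0.51 for EIF4B, −0.19 to 0.17 for EIF4G1, −0.27 to 3.77 for EIF4G3, −0.21 to 0.58 for EIF4H, −0.68 to 0.78 for EIF5, −0.75 to 0.80 for EIF5B and −0.53 to 1.24 for GSPT1. IGF2BP3 kept its sign and missed the threshold in all 13 alternatives run for it.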

Other observations

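The ratio of EIF2S2 to EIF2S1, the beta and alpha subunits of eIF2, was close within groups although each gene varied several-fold there. By FPKM it was 0.940 and 1.13 in control cells versus 6.21 and 6.71 in knockout cells, so the ratios of the groups were 5.48 times apart at their nearest. This pair was singled out after its values were seen. Among the 129 pairs of members of one complex with both genes above 0 in every library, the ratios of the groups did not overlap for 37 (28.7%). That is near the 26.5% of all genes tested whose own levels did not overlap, and the share over gene pairs in general was not computed. This pair had the widest gap of the 129, which reuse the same genes. A gap of at least 4-fold was present for 2 pairs, the other being EIF3K and EIF3L, whose ratio was 4.82 and 4.41 in control cells versus 0.131 and 1.09 in knockout cells. The exons that EIF3L shares with another gene make that ratio uncertain.

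Knockout 1, the shallowest library, held the lowest value of the 4 for 15 of the 41 members above 0 and the highest for another 15. Control 1, the deepest, held the lowest for 11 and the highest for 10. EIF4A1, EIF4G3, EIF3M, EIF3F and EIF2S3 were lowest in control 1, with 0 to 25 reads there.

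The summed FPKM of EEF1A1 and its paralog EEF1A2 was 972 and 789.7 in control cells versus 863 and 841 in knockout cells, a narrower range than either gene showed alone. Reads that EEF1A1 can share with its pseudogenes leave this sum uncertain. The sum of EIF3C and EIF3CL given above was not narrower than EIF3CL alone, at 25.2 and 46.1 versus 18.8 and 23.5.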
